A study of Rattus norvegicus with 4 samples.

Results

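The NF-kB feedback circuit was followed through 10 genes, out of 30017 gene symbols measured, in rat esophagus after X-ray exposure. They were picked by symbol from a list that was set with earlier results of these data known. The members are Nfkbia, Nfkbiz, Nfkbie, Nfkb1, Nfkb2, Relb, Tnfaip3, Birc3, Bcl3 and Sod2. Each symbol matched 1 of the 32623 features. The tissue came from male Sprague-Dawley rats of 6 weeks, and the esophagi of 5 rats were pooled into 1 single-cell library per group, so there were 4 libraries in all. The control received 5 fractions of 0 Gy and was collected 7 days later. For the single-dose library 1 fraction of 35 Gy was given, with collection at day 7. For the fractionated libraries 5 fractions of 7 Gy were given, 35 Gy in total, with collection at day 7 or day 14. No unirradiated library of day 14 was analysed here, so day 14 is set against the day 7 control, and time and treatment cannot be told apart there. All groups shared cold storage in tissue storage solution, shipment within 48 hours, enzymatic digestion at 37 °C and removal of dead cells.

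NF-kB is a family of transcription factors held in the cytoplasm by inhibitor proteins until cytokine, pathogen or stress signals lead to degradation of the inhibitors. Many genes that active NF-kB switches on encode its own inhibitors, its own subunits or enzymes that take apart the upstream signalling complexes, which makes the pathway self-limiting. In barrier epithelia and their stroma this circuit is best known for setting the length of inflammatory and survival responses to injury, radiation included.

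The libraries held 10468 to 12505 barcodes and 59805782 to 109618791 unique molecular identifiers (UMIs, each standing for 1 captured transcript). Between 8878 and 11357 cells per library were kept, and 26 to 38 barcodes, at most 0.363% of a library, were shared by any pair of libraries. Barcodes over the limit of 20% mitochondrial UMIs made up 5.49% of the control, 15.2% of the single-dose, 16.6% of the fractionated day 7 and 3.71% of the fractionated day 14 library. Cells were assigned to a class by marker genes, and 12.0% to 13.2% of kept cells stayed unassigned. In the classes of each library all 12 measured epithelial, 8 fibroblast, 10 mural and 13 macrophage and monocyte markers had UMIs, and 9 or 10 of 10 blood endothelial markers. Since these markers assigned the cells, this is no separate check of the classes. Levels are given as CPM, the UMIs of a gene per 1000000 UMIs of all cells of the class, which removes class size and depth. A CPM cannot tell a change in a gene from an opposite change in the rest of the cell's RNA. With 1 pool per group there is no replicate check and no test. Ranges in parentheses are exact 95% intervals that cover counting error only, not the spread between animals.

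The stretches of genome just before the start sites of the members were read for a sequence pattern. RefSeq promoters of the build GRCr8 were given for 8 of the 10 members. They were searched on both strands for a form of the NF-kB site 10 bases long, whose letters were set after these promoters had been seen: 3 G, any 2 bases, 2 T, any 1 base and 2 C. It occurred in 6 of the 8 windows of 300 bases (250 before and 50 after the start site), those of Nfkbia, Nfkbiz, Nfkb1, Nfkb2, Tnfaip3 and Bcl3. Of all 33469 rat promoters of that length, 5.00% held it. Because the letters were set on the members' own promoters, nothing is read from the gap between these shares. Windows of Nfkbie and Sod2 had no match, which says only that these letters were not there. The 250 bases before the start are printed 5' to 3' on the strand of the gene, for 4 members with a match whose levels the results turn on, and for Sod2, which behaved differently. Capitals mark the match on either strand.
Nfkbia (chr6:78597073-78597322, minus strand): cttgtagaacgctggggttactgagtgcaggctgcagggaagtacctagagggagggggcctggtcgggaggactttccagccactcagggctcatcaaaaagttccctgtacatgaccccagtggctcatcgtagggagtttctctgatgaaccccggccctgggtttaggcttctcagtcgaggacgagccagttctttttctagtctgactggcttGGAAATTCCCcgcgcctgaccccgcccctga
Nfkbiz (chr11:58251471-58251720, plus strand): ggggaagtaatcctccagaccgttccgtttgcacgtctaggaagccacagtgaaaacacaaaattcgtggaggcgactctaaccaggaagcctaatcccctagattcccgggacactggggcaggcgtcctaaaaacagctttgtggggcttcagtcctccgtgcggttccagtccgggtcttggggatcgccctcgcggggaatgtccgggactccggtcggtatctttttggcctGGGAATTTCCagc
Tnfaip3 (chr1:15543980-15544229, minus strand): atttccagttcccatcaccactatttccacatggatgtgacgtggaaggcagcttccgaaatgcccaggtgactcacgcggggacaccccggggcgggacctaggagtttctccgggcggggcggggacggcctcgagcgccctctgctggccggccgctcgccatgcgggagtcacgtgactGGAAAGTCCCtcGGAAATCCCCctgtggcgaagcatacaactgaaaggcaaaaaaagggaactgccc
Nfkb2 (chr1:255108124-255108373, plus strand): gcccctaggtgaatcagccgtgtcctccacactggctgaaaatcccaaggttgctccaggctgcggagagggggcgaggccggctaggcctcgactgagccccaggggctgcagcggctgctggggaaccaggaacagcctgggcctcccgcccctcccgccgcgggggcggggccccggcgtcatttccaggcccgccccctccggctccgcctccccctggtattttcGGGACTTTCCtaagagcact
Sod2 (chr1:50050169-50050418, minus strand): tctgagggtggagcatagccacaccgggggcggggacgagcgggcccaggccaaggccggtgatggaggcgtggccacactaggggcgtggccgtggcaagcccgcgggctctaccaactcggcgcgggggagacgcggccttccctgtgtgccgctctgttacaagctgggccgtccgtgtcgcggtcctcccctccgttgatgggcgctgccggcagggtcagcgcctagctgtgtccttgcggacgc
Tnfaip3 carried 2 matches close together, and the matches of Nfkbia, Nfkbiz and Nfkb2 began 31, 13 and 20 bases before the start site. In Nfkb1 the match began 4 bases after the start site, at chr2:226805450-226805459 on the minus strand, and is shown in a window of 30 bases.
Nfkb1: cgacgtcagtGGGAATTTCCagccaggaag
The same 10 letters, GGGAATTTCC, stood in Nfkb1 and Nfkbiz, and on the opposite strand in Nfkbia. The UMIs had been counted on the earlier build mRatBN7.2, so the promoters were joined to the members by symbol alone.

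In the unirradiated control the members were not spread evenly over the classes. Macrophages and monocytes had the highest CPM of Nfkbiz, Nfkbie, Nfkb2, Tnfaip3 and Sod2, although for Nfkb2 the interval overlapped that of muscle satellite cells, the next class. Nfkbia, which encodes the main cytoplasmic inhibitor, was highest in lymphatic endothelial cells at 2359 CPM (2295 to 2424). It then fell in order through macrophages at 1899, epithelial cells at 1631, blood endothelial cells at 1436, fibroblasts at 1232, muscle satellite cells at 994 and mural cells at 748. Only mural cells and glia, at 710.2, had overlapping intervals among neighbours in that order. For Relb no neighbouring classes had intervals apart from each other, since its highest level was 8.0 CPM (5.22 to 11.7). Nfkb1 separated only epithelial cells, at 22.2 CPM, from mural cells, the next class above, at 30.3. Per cell, after each was thinned to 1000 UMIs, 12.7% of control epithelial cells and 6.57% of control macrophages had no UMI of any member.

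**Figure D1:**
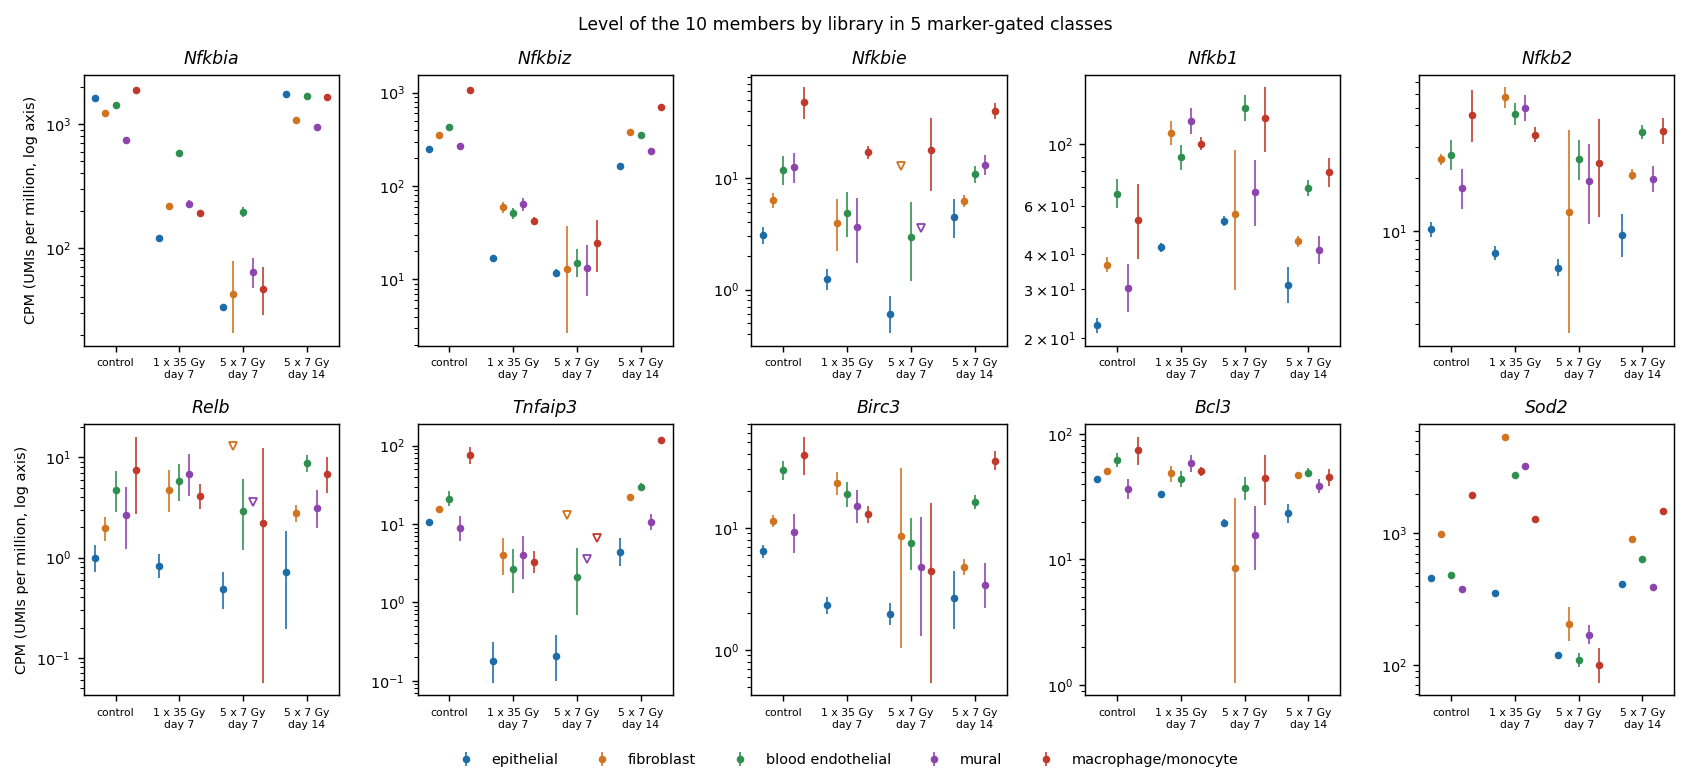
Level of each of the 10 members (CPM, log axis, 1 panel per gene) in the 4 libraries (horizontal axis), with points coloured by class and bars giving exact 95% counting intervals. Open triangles mark 0 UMIs and stand at the level of 3 UMIs. Nfkbia and Nfkbiz drop in both day 7 irradiated libraries and rise again by day 14. Nfkbiz then lies above the control in fibroblasts and below it in the other classes shown. Nfkb1 is higher in the day 7 irradiated libraries, and Sod2 is highest in fibroblasts after the single dose at 5368 CPM.

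The cytoplasmic inhibitor Nfkbia was low at day 7 in both irradiated libraries and back near its control level at day 14 in most classes. In epithelial cells it stood at 1631 CPM in the control, 120.1 after the single dose, 33.4 after fractions at day 7 and 1760.2 after fractions at day 14. The single dose was therefore 13.6-fold (13.3 to 13.9) and the fractions 48.8-fold (46.4 to 51.3) below the control. In macrophages and monocytes the values were 1899, 194, 46.4 and 1666 CPM in the same order. Blood endothelial cells kept the most, with 1436, 583, 195 and 1688 CPM. Mural cells, the smooth muscle cells and pericytes around vessels, had 748, 227, 63.6 and 945 CPM. None of the intervals of the day 7 irradiated libraries reached those of the control or of day 14 in these classes. Fibroblasts had 1232, 217, 42.8 and 1087 CPM, where the third value rests on 75 cells and 10 UMIs. Glia and lymphatic endothelial cells, too few after fractions at day 7, were 3.80-fold (2.98 to 4.91) and 6.18-fold (5.45 to 7.04) lower after the single dose. At day 14 glia stood above the control, at 997 against 710 CPM. Lymphatic endothelial cells, 91 at day 14, stayed below it, at 1403 against 2359 CPM.

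The same held for the share of cells in which Nfkbia was detected at equal depth. Thinned to 1000 UMIs, 75.7% of control epithelial cells had a UMI of it, 11.8% after the single dose, 3.79% after fractions at day 7 and 67.5% at day 14. Unthinned cells gave 98.3%, 74.7%, 20.9% and 91.2%, and their median UMI counts were 15439, 19414, 6893 and 13838. Macrophages and monocytes went from 75.6% to 16.3% and 5.53%, and back to 70.5%, after thinning. No class measured here is known to lack these genes, so the part of free RNA in these shares was read from other genes. Summed over 8 further epithelial genes, macrophages held 3.74%, 4.67%, 5.79% and 0.848% of the epithelial level in the 4 libraries, in the order given above. Other classes held up to 26.3%, in neutrophils of the single-dose library. Over 8 fibroblast genes, single-dose mural cells held 47.8%, glia 39.3% and blood endothelial cells 31.0% of the fibroblast level. In the control these were 32.8%, 43.0% and 34.7%. Free RNA and RNA of the cells themselves cannot be told apart in these shares. The part of free RNA in the members' values was not tested.

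**Figure D2:**
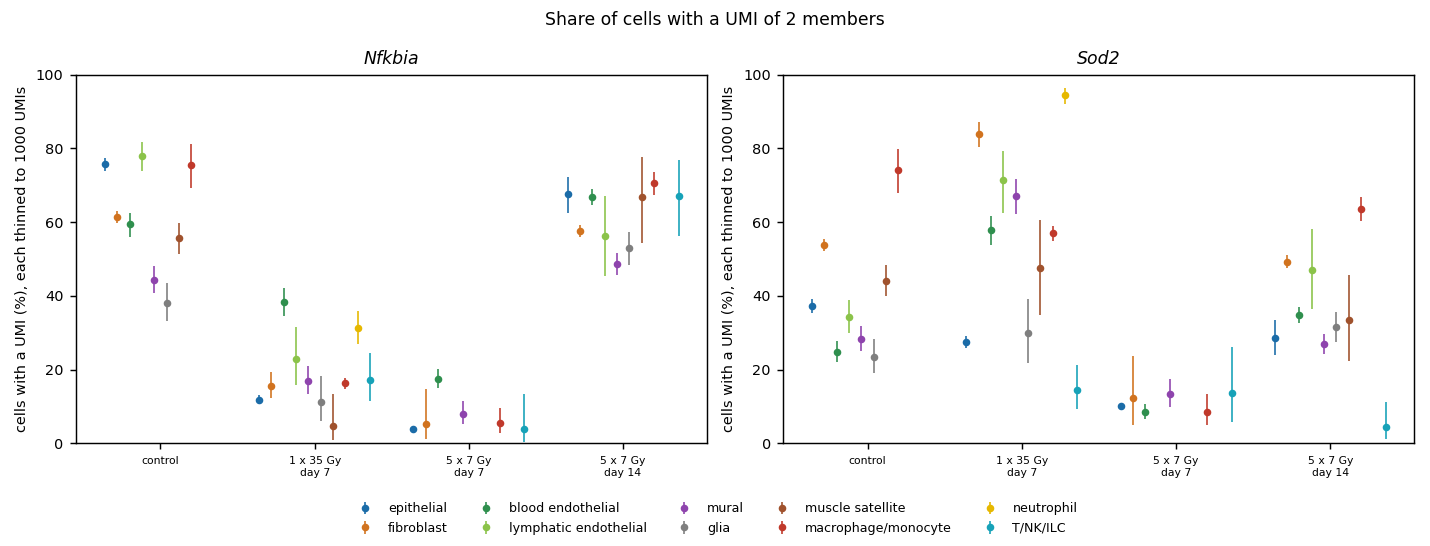
Percent of cells with at least 1 UMI of Nfkbia (left) and Sod2 (right), each cell thinned to 1000 UMIs, by library (horizontal axis) and class (colour); bars are exact 95% Clopper-Pearson intervals. In the single-dose library Nfkbia is at 11.8% of epithelial cells while Sod2 is at 84.0% of fibroblasts and 94.6% of neutrophils.

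Nfkbiz fell as widely as Nfkbia, Nfkbie fell in most classes, and Bcl3 did not share one direction. Nfkbiz encodes a nuclear inhibitor family member that also helps to induce some NF-kB targets, and Nfkbie a further cytoplasmic inhibitor. Nfkbiz in macrophages stood at 1080.1 CPM in the control, 42.3 after the single dose, 24.3 after fractions at day 7 and 703 at day 14. It was 25.5-fold (22.9 to 28.5) and 44.4-fold (24.7 to 89.3) lower at day 7 than the control. In epithelial cells it went from 249 to 16.8 and 11.8 CPM and was 166 at day 14, 1.5-fold below the control. Across classes it was lower by 4.23-fold to 25.5-fold in 7 of 7 after the single dose and by 20.4-fold to 44.4-fold in 4 of 4 after fractions. Nfkbie was much scarcer. In epithelial cells it fell from 3.09 to 1.24 and 0.606 CPM, with 4.44 at day 14, and in macrophages from 48.1 to 17 and 17.7, with 40.1 at day 14. In mural cells it had 12.5 and 3.62 CPM and then 0 of 832765 UMIs after fractions. With 3 UMIs put in place of 0, or 3.60 CPM, it was 3.46-fold lower there. That value leaves out the counting error of the control. Bcl3, a nuclear member of the same inhibitor family that can act with the dimers of the smaller subunits, differed between classes after the single dose. It was higher in mural cells, at 58.2 against 36.5 CPM or 1.59-fold (1.25 to 2.03), and lower in epithelial cells, at 33.0 against 44.0. In fibroblasts it stood at 48.5 against 50.7 CPM and in lymphatic endothelial cells at 31.6 against 22.6, with intervals that reached no change in both. Its level in blood endothelial cells was 62.1, 43.6, 37.0 and 49.2 CPM in the 4 libraries. Over whole classes it was past 2-fold only after fractions at day 7, in epithelial cells at 2.25-fold (2.07 to 2.43) lower and in mural cells at 2.34-fold (1.32 to 4.52) lower. Within classes, single-dose basal epithelial cells had a log2 ratio of -1.28 (-1.49 to -1.06) and resident macrophages -1.23 (-1.73 to -0.73). Suprabasal and cycling epithelial cells had -0.15 and -0.24. At day 14 basal, suprabasal and cycling cells had -1.02, -1.05 and -0.83.

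Tnfaip3 and Birc3, which encode enzymes of the upstream signalling complexes, moved apart in fibroblasts and mural cells after the single dose. Tnfaip3 encodes a ubiquitin-editing enzyme that shuts down receptor complexes. It nearly vanished from epithelial cells, with 10.6 CPM in the control, 0.181 after the single dose, 0.209 after fractions at day 7 and 4.44 at day 14. These are 439, 12, 10 and 25 UMIs, and the folds below the control at day 7 were 58.6 (33.2 to 114) and 50.8 (27.3 to 107). Macrophages had 75.3, 3.30, 0 and 119 CPM, the third being 0 of 452294 UMIs, where 3 UMIs would be 6.63 CPM. Blood endothelial cells had 21.0, 2.65, 2.10 and 29.7 CPM. In each of these 3 classes the day 7 irradiated libraries lay below the control and day 14. Lymphatic endothelial cells did not show the fall after the single dose, with 9.01 against 8.15 CPM from 6 and 18 UMIs, a log2 ratio of 0.15 (-1.48 to 1.54). At day 14 the direction differed between these classes: epithelial Tnfaip3 was 2.39-fold (1.60 to 3.73) below the control, while macrophages were above it by 0.66 (0.27 to 1.07) on the log2 scale. Birc3 encodes a ubiquitin ligase that inhibits cell death and holds the kinase of the noncanonical branch in check. After the single dose it was lower in epithelial cells, at 2.32 against 6.40 CPM, and in macrophages, at 12.9 against 39.5. It was higher in fibroblasts, at 23.0 against 11.4, and mural cells, at 15.2 against 9.21. Tnfaip3 was lower in both, at 3.97 against 15.6 and 3.98 against 8.91 CPM. After fractions at day 7 Birc3 was below the control in epithelial cells, at 1.96 CPM, and blood endothelial cells, at 7.57 against 29.4. Mural cells then had 4.80 CPM and macrophages 4.42, both from few UMIs. In neutrophils of the single-dose library it stood at 81.4 CPM (65.9 to 99.6), its highest level in any class and library with at least 100 cells.

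Among the subunit genes Nfkb1 stood apart. It encodes the precursor of a DNA-binding subunit of the canonical branch. Its level was above the control in each class compared at day 7, which held for no other member. Epithelial cells had 22.2 CPM in the control, 42.4 after the single dose, 52.8 after fractions at day 7 and 31.1 at day 14. Blood endothelial cells had 66.3, 89.7, 135 and 69.3, mural cells 30.3, 122, 67.2 and 41.6, and macrophages 53.1, 100.4, 124 and 79.0 CPM. After fractions it was 2.04-fold to 2.38-fold higher in the 4 classes, and after the single dose 4.01-fold (3.21 to 5.06) in mural cells and 2.99-fold (2.66 to 3.36) in fibroblasts. The interval reached no change in glia after the single dose, at 0.64 (-0.08 to 1.33) on the log2 scale. It also did so in macrophages of the resident type, at 74.0 against 52.9 CPM or 0.49 (-0.0018 to 1.01), which made up 413 of the 2399 single-dose cells of their class. Because Nfkbia fell while Nfkb1 rose, the balance of their UMIs within a class shifted by a large factor. For each 100 UMIs of Nfkbia, epithelial cells had 1.36 UMIs of Nfkb1 in the control (1.27 to 1.45), 35.3 (33.8 to 36.9) after the single dose, 158 (148 to 168) after fractions at day 7 and 1.77 (1.51 to 2.05) at day 14. This ratio does not depend on the total used for scaling.

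**Figure D3:**
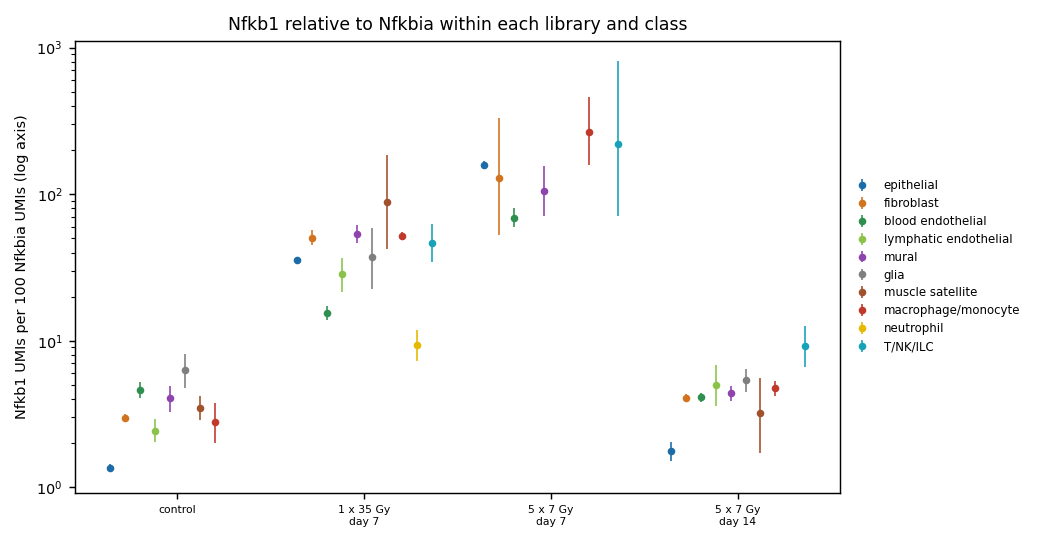
UMIs of Nfkb1 per 100 UMIs of Nfkbia (log axis) within each library (horizontal axis) and class (colour), with exact 95% intervals. All classes lie between 1.36 and 6.27 in the control and between 9.39 and 88.9 after the single dose; after fractions at day 7 they lie between 69.2 and 267.

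Nfkb2 and Relb encode the subunits of the noncanonical branch, and after the single dose both were higher in fibroblasts and mural cells. Nfkb2 in mural cells stood at 17.5 CPM in the control, 50.3 after the single dose, 19.2 after fractions at day 7 and 19.9 at day 14. In fibroblasts it had 25.6, 57.7, 12.8 and 20.9 CPM, the third from 3 UMIs. The single-dose library alone was high in both classes, 2.87-fold (2.10 to 3.96) and 2.26-fold (1.93 to 2.63) above the control. Blood endothelial Nfkb2 was also higher, at 46.5 against 27.2 CPM, while lymphatic endothelial cells had 18.0 against 19.0 and glia 13.4 against 14.3, with intervals that reached no change. In epithelial cells Nfkb2 was at 10.3, 7.58, 6.25 and 9.60 CPM, and after fractions at day 7 it was 1.65-fold (1.42 to 1.92) lower than the control. Relb was rare, with 1.96 against 4.77 CPM in control and single-dose fibroblasts and 2.67 against 6.87 in mural cells, from 53, 18, 9 and 19 UMIs. In macrophages Relb had 7.41 and 4.11 CPM in these libraries and in epithelial cells 0.991 and 0.829, with overlapping intervals in both. After fractions at day 7 epithelial Relb was at 0.481 CPM, 2.06-fold (1.21 to 3.60) below the control, from 23 and 41 UMIs.

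Sod2, the mitochondrial superoxide dismutase and an effector that NF-kB induces in many cells, set the irradiation schedules apart. After the single dose it was far higher in stroma and vessels. Fibroblasts had 982 CPM in the control and 5368 after the single dose, then 206 after fractions at day 7, from 48 UMIs, and 912 at day 14. Mural cells had 378, 3261, 169 and 391 CPM, blood endothelial cells 482, 2797, 109 and 642. The single-dose level was 5.47-fold (5.37 to 5.57) above the control in fibroblasts, 8.63-fold (8.14 to 9.16) in mural cells, 5.81-fold (5.53 to 6.09) in blood endothelial and 5.46-fold (5.05 to 5.90) in lymphatic endothelial cells. Glia were 2.12-fold (1.83 to 2.46) higher. Epithelial cells and macrophages went the other way, with 454 against 354 CPM and 1942 against 1281 CPM, or 1.28-fold and 1.52-fold lower. The fractionated library of day 7 was the lowest of the 4 in every class, at 118 CPM in epithelial cells and 99.5 in macrophages, 3.84-fold (3.73 to 3.96) and 19.5-fold (14.5 to 26.9) below the control. At day 14 Sod2 lay between 1.33-fold above and 1.32-fold below the control in the 6 classes compared.

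The share of cells with Sod2 moved with its level. After thinning to 1000 UMIs it was detected in 53.9% of control and 84.0% of single-dose fibroblasts, and in 28.4% and 67.1% of mural cells. Without thinning these shares were 87.5%, 91.5%, 60.9% and 89.3%. Neutrophils, which only the single-dose library held in number (738 cells), had 4707 CPM (4584 to 4833) of Sod2, and 94.6% of the 441 that were deep enough for thinning had a UMI of it. Summed over 10 neutrophil markers, levels stood at 152738 CPM in neutrophils, 193 in mural cells, 153 in fibroblasts, 1555 in blood endothelial and 1012 in epithelial cells of the same library, against 0.406 to 9.88 in the control classes. The part of neutrophil RNA in the Sod2 levels of other classes was not tested.

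Other superoxide and peroxide enzymes gave no shared direction with Sod2. Of 9 listed, 1 was at least 2-fold lower and 1 at least 2-fold higher in single-dose fibroblasts, against 12.6% and 10.9% of all genes. Their median log2 ratio was 0.04. The cytosolic counterpart Sod1 was at 203 CPM in control and 147 in single-dose fibroblasts. Prdx5, a peroxiredoxin, was higher there, at 564 against 156 CPM, and in macrophages, at 6009 against 338, where Sod2 was not. The macrophage class differed in makeup: cells of the resident type were 204 of 213 in the control and 413 of 2399 after the single dose.

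Counted over members and classes, the single dose was set against the control in 7 classes. To be counted, a member needed 20 UMIs over both libraries, and it was called where CPM differed by at least 2-fold. Of 64 such combinations 26 were lower and 12 higher. In epithelial cells 5 of 10 members were lower and 0 higher, where 10.6% of all genes were lower and 9.59% higher by the same rule. In macrophages 5 of 10 were lower and 0 higher, against 15.9% and 15.6% of all genes. In fibroblasts 3 of 10 were lower, against 12.6% of genes, and 5 were higher, against 10.9%: Birc3, Nfkb1, Nfkb2, Relb and Sod2. Mural cells had 4 lower, against 10.6%, and 4 higher, against 7.16%, the same genes as in fibroblasts without Birc3. Blood endothelial cells had 4 of 10 lower, against 12.8%, and 1 higher, against 7.68%. Lymphatic endothelial cells had 3 of 8 lower, against 13.6%, and 1 higher, against 5.13%, and glia 2 of 6 lower, against 8.01%, and 1 higher, against 10.1%. In these last 3 classes the single higher member was Sod2. The median log2 ratio of the members was -0.88 in epithelial cells, -1.18 in macrophages, 0.48 in fibroblasts and 0.70 in mural cells, where the medians of all genes were 0.16, 0.11, 0.04 and 0.05.

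After fractions at day 7 the fall was wider, and 4 classes could be compared with the control. Of 38 combinations 26 were lower and 4 higher, and the 4 were Nfkb1 in each class. Epithelial cells had 8 of 10 members lower, against 12.3% of all genes, and 1 higher, against 11.7%. Blood endothelial cells had 6 of 10 lower, against 10.8%, and 1 higher, against 11.6%. Mural cells had 6 of 9 lower, against 11.2%, and 1 higher, against 9.77%. Macrophages had 6 of 9 lower, against 17.2%, and 1 higher, against 16.5%. The median log2 ratio of the members ran from -1.23 in mural cells to -3.16 in macrophages, where all genes had 0.07 and 0.07. The macrophage median was the ratio of Birc3, which rested on 2 UMIs after fractions. Epithelial cells with none of the 10 members after thinning rose from 12.7% in the control to 57.5% after the single dose and 78.3% after fractions, and were 24.1% at day 14.

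**Figure D4:**
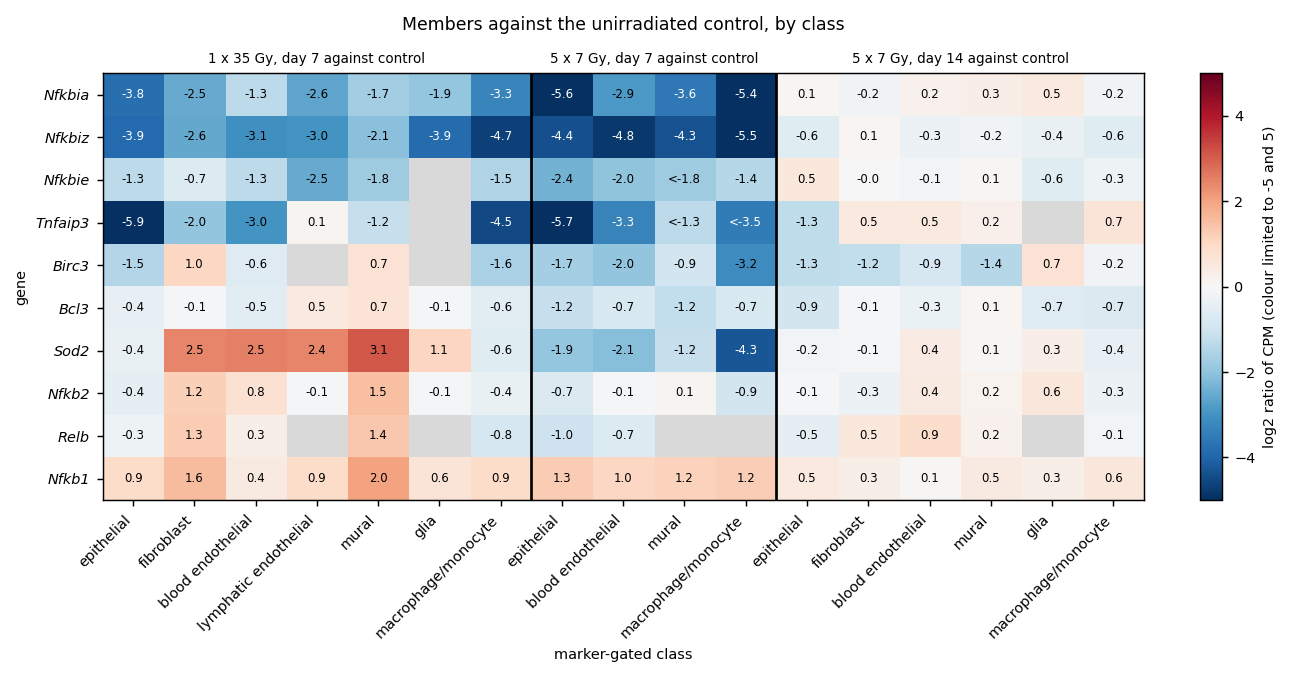
Log2 ratio of CPM against the unirradiated control for each member (rows) and class (columns) in the 3 irradiated libraries. Red is higher, blue lower, and grey is under 20 UMIs in the pair. A leading < marks 0 UMIs in the irradiated library, where the value was computed with 3 UMIs in place of 0. Nfkbia and Nfkbiz are blue and Nfkb1 red in every class of the day 7 blocks, Tnfaip3 is blue in all coloured classes there but lymphatic endothelial cells, Sod2 is past 2-fold higher only after the single dose, and the day 14 block stays between -1.42 and 0.89.

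At day 14 after fractions few members were past 2-fold. Of 58 combinations in 6 classes 4 were lower and 0 higher. Epithelial cells had 2 of 10 lower, against 5.64% of all genes, and 0 higher, against 7.89%. Fibroblasts had 1 lower, against 4.01%, and 0 higher, against 9.63%, and mural cells 1 lower, against 2.71%, and 0 higher, against 6.48%. Blood endothelial cells, glia and macrophages had 0 in either direction, against 5.30%, 2.82% and 4.94% of genes lower and 5.44%, 9.28% and 7.92% higher. Birc3 made up 3 of the 4. It stood at 4.81 against 11.4 CPM in fibroblasts, 3.43 against 9.21 in mural cells and 2.67 against 6.40 in epithelial cells, or 2.37-fold (1.96 to 2.86), 2.68-fold (1.53 to 4.78) and 2.40-fold (1.43 to 4.35) below the control. In glia it was 12.6 against 7.55 CPM, with overlapping intervals. The fourth was epithelial Tnfaip3, given above. These are 386 epithelial cells, the fewest of any library.

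Between the fractionated libraries the members rose from day 7 to day 14. Of 40 combinations 25 were higher and 0 lower. Epithelial cells had 5 of 10 higher, against 14.8% of all genes, and 0 lower, against 13%. Blood endothelial cells had 7 higher, against 12.7%, and 0 lower, against 11.8%, and mural cells 6 higher, against 15.0%, and 0 lower, against 8.75%. Macrophages had 7 higher, against 16.3%, and 0 lower, against 17.8%. Nfkbia, Nfkbiz, Nfkbie, Tnfaip3 and Sod2 were higher in all 4 classes, with epithelial Nfkbia 52.6-fold (49.9 to 55.5) and macrophage Sod2 14.8-fold (11 to 20.3) above day 7. Nfkb1 was lower by 0.65 to 0.96 on the log2 scale in the 4 classes.

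The comparisons with the control share 1 control library and are not independent of each other. The day 7 schedules delivered the same total dose of 35 Gy, in 1 or 5 fractions, and were compared directly. Of 36 combinations 16 were lower after fractions than after the single dose and 0 higher. Mural cells had 6 of 7 members lower, against 11.6% of genes, and 0 higher, against 11.2%. Blood endothelial cells had 4 of 9 lower, against 8.48%, and 0 higher, against 12.8%. Epithelial cells had 3 of 10 lower, against 13.2%, and 0 higher, against 8.01%, and macrophages 3 of 10 lower, against 11.7%, and 0 higher, against 16.5%. Sod2 was 25.6-fold (22.6 to 29.0) lower in blood endothelial cells, 19.3-fold (16.3 to 22.9) in mural cells, 12.9-fold (9.62 to 17.7) in macrophages and 2.99-fold (2.91 to 3.08) in epithelial cells. Nfkbia was 2.99-fold to 4.17-fold lower in the 4 classes.

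Cell states within a class were read apart. Macrophages and monocytes changed in makeup: cells of the resident type numbered 204 in the control, 413 after the single dose, 164 after fractions at day 7 and 828 at day 14, and cells of the infiltrating monocyte type 9, 1986, 66 and 28. Within resident cells Nfkbia stood at 1885, 115, 33.5 and 1603 CPM and Sod2 at 1951, 1207, 64.0 and 1468. Birc3 was at 40.0 CPM in resident cells of the control and 7.65 after the single dose. Genes outside the members, such as Prdx5, Rela and Tnip1, were read over the whole class only. The part of makeup in their macrophage levels was not tested. Infiltrating cells of the single-dose library had 217 CPM of Nfkbia and 1303 of Sod2, and the 66 of the fractionated day 7 library 80.4 and 193. Basal, suprabasal and cycling epithelial cells each showed the low Nfkbia, with 1769, 1531 and 1725 CPM in the control and 35.2, 31.3 and 38.4 after fractions at day 7. Nfkb1 was above the control in each of them, by 1.11, 1.39 and 1.31 on the log2 scale after fractions at day 7.

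The rest of the pathway was uneven between lists and classes. Of 29 kinases and adaptors that carry the signal to the inhibitors, 4 were at least 2-fold lower and 0 higher in single-dose epithelial cells. The median log2 ratio was -0.16, and 10.6% of all genes were lower and 9.59% higher by the same rule. After fractions at day 7 the count was 2 lower and 1 higher, against 12.3% and 11.7% of all genes, with a median of 0.26. The adaptor Myd88 was among the lower ones, at 108, 39.0 and 22.1 CPM in epithelial cells of the control and the day 7 irradiated libraries. Of 17 receptors 16 were counted in single-dose epithelial cells, of which 1 was lower and 2 were higher. Of 7 further subunits and inhibitors, 2 were lower and 0 higher there. After fractions at day 7, 3 of 7 were lower in epithelial cells and 3 of 6 in blood endothelial cells, against 12.3% and 10.8% of all genes. Mural cells had 1 of 5 lower and macrophages 4 of 5, against 11.2% and 17.2%. The list medians in these classes were -0.90, -1.24, -0.15 and -2.43 on the log2 scale. Rel, the inducible subunit, was at 29.0, 10.0 and 7.10 CPM in epithelial cells, and Nfkbid, another nuclear inhibitor, at 10.1, 0.332 and 0.899. In single-dose macrophages 5 of 6 counted genes of that list were lower, against 15.9% of all genes. Among them was Rela, the main activating subunit, at 37.9 against 91.3 CPM. Of 14 further brakes matched to a symbol, 13 were counted in epithelial cells. After the single dose 3 were lower and 1 higher, against 10.6% and 9.59% of all genes, with a median of -0.15. After fractions at day 7 the count was 2 lower and 0 higher, against 12.3% and 11.7%, with a median of -0.07. Zc3h12a, an RNase that degrades inflammatory transcripts, fell in epithelial cells from 120.4 to 36.4 and 11.7 CPM. Tnip1, a partner of the Tnfaip3 protein, was higher in macrophages at 105 and 90.6 against 38.3.

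Effector targets of NF-kB split after the single dose and mostly fell after fractions. Of 28 listed, 9 were at least 2-fold higher and 5 lower of 22 counted in single-dose fibroblasts, against 10.9% and 12.6% of all genes. Lcn2, an iron-binding antimicrobial protein whose induction is known to need Nfkbiz in several cell types, was at 3821 CPM there against 0.627 in the control, and Csf3, the granulocyte growth factor, at 141 against 0.185. Irf1, a transcription factor, was lower in the same cells at 27.3 against 913 CPM. In macrophages 14 of 23 were lower after the single dose and 12 of 13 after fractions, against 15.9% and 17.2% of all genes. There Cxcl1, a neutrophil chemokine, had 4952 CPM in the control, 62.3 after the single dose and 0 of 452294 UMIs after fractions. At day 14 the effector targets had medians between -0.51 and 0.58 in the 6 classes. Ligands that start the signal were too rare for most classes: of 12, 2 to 6 were counted in any class of the comparisons with the control.

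The levels of immediate-early and heat shock genes, which respond to handling of tissue as well as to signals in the animal, moved together with the inhibitors. In epithelial cells 20 of 22 immediate-early genes were at least 2-fold lower after the single dose and 21 of 22 after fractions at day 7. Of all genes 10.6% and 12.3% were lower. The median log2 ratios of the list were -3.40 and -5.51. At day 14 the median was 0.02. Atf3, one of them, stood at 3045 CPM in control epithelial cells, 4.22 after the single dose, 0.585 after fractions at day 7 and 2813 at day 14. Heat shock genes had medians of -1.49 and -1.15 in epithelial cells and -4.18 and -4.60 in macrophages at day 7. Their part in the members' fall was not tested, and which of these differences arose before and which after the tissue was taken cannot be told apart with these libraries. Nfkb1, and Sod2 in stroma and vessels after the single dose, stood above the control in the same cells. After fractions at day 7 Sod2 lay below every other library in each class measured. The part of handling in these levels was not tested either.

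**Figure D5:**
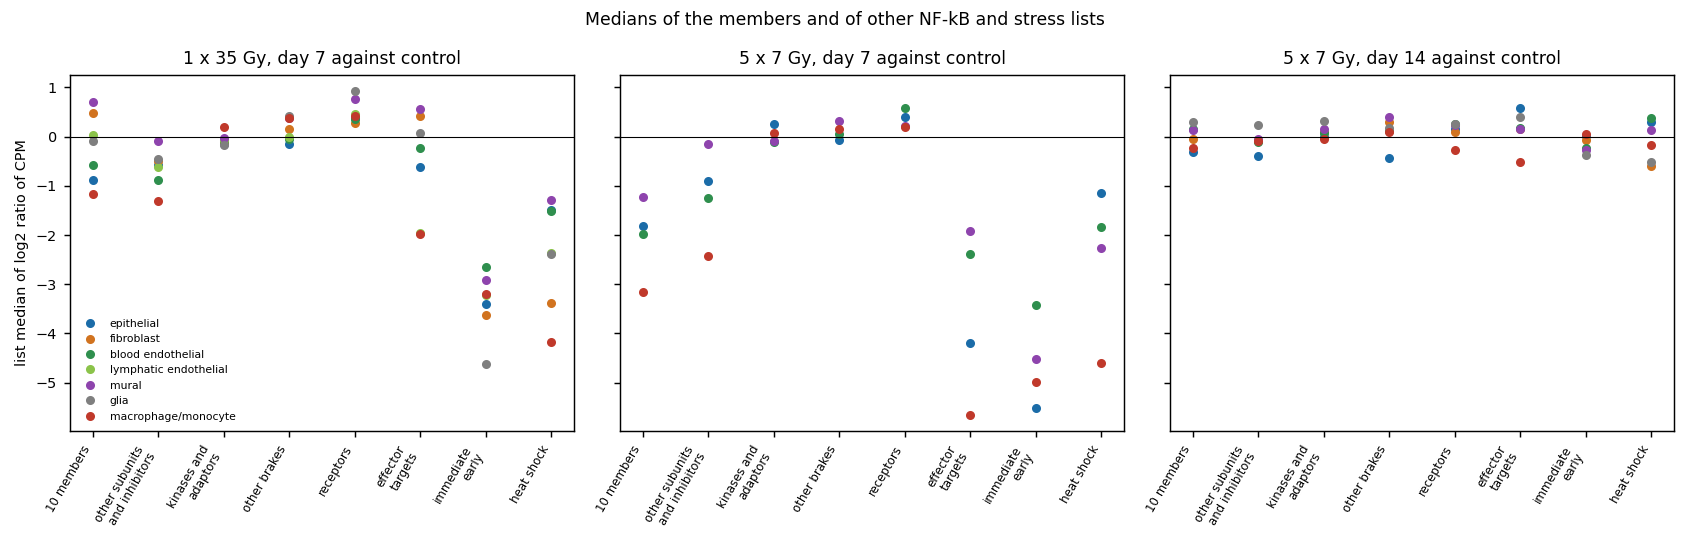
Median log2 ratio of CPM against the control for the 10 members and 7 other lists (horizontal axis), 1 point per class (colour), in the 3 irradiated libraries. Kinases and adaptors lie between -0.18 and 0.31 in all 3 libraries, while immediate-early genes lie between -2.65 and -5.51 at day 7 and between -0.38 and 0.06 at day 14.

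Across the 27 combinations of library and class with at least 100 cells, the members were compared by the Pearson correlation of log2(CPM + 10). These combinations share libraries and depth, so the values are descriptions. Each member was set against the mean of the other 9. Tnfaip3 followed it most closely with r = 0.74 and Birc3 next with r = 0.71, Sod2 had r = 0.50, and Nfkb1 alone was negative with r = -0.17. Among 12807 other genes the 8 most like the mean of the members were Zc3h12a at r = 0.89, Trib1, Map3k8, Akap17a, Cxcl1, Spty2d1, Taf7 and Ier3, the last at r = 0.82. The 5 most like Nfkbia were Ppp1r15a at r = 0.94, Ier2, Btg2, Dusp1 and LOC100909712 at r = 0.89, of which Ier2, Btg2 and Dusp1 were on the immediate-early list.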

How the data were processed

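Single-cell RNA was measured in 4 libraries of rat esophagus, 1 pool of 5 rats per group. The authors deposited raw UMI counts per gene and barcode, made with Cell Ranger 5.0.0 on mRatBN7.2 per the submitters' processing notes. Kept cells had 200 or more genes, 500 or more UMIs and no more than 20% mitochondrial UMIs, and doublets called by Scrublet (expected rate 0.8% per 1000 cells) were left out. A cell joined the class whose markers had the highest standardised level on average, given at least 3 detected markers and a margin of 0.25. This scoring was chosen after the data were seen. Counts were summed per library and class. Ratios carry exact conditional binomial intervals, levels exact Poisson intervals and shares Clopper-Pearson intervals, all at 95% and for counting error only. Classes needed 100 cells in both libraries, and values are given from 50. A count of 0 is replaced by 3 UMIs where a level or ratio is printed for it, without the counting error of the other library. The members and lists were chosen with earlier results of these data known. Named were all members and, from other lists, examples among the up to 4 genes per class and comparison with the largest log2 ratio by the interval bound nearest to no change, given at least 50 UMIs, and the 8 and 5 genes most like the mean of the members and Nfkbia. Of 356 listed symbols 15 had no match. The ratio and call steps were tested on simulated data. Alternatives covered filters, doublets, gate margin, totals, cell weighting and UMI minimum. Analysis used Python 3.11.15, numpy 2.4.6, scipy 1.17.1, pandas 2.3.3, scanpy 1.11.5 and matplotlib 3.10.9.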

Additional observations from a re-analysis of the deposited data

Results flagged for a closer look

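In 4 cases a member was at least 2-fold from the control in one class and at least 0.3 on the log2 scale the other way in another class of the same library, with intervals on either side of no change. Smaller opposed ratios, such as those of Bcl3 after the single dose, are not listed. With 1 library per group the difference was not tested. Sod2 after the single dose, against the control, was at 3.11 in mural cells and -0.60 in macrophages and monocytes, a difference of 3.71. Birc3 in the same comparison was at 1.02 in fibroblasts and -1.61 in macrophages and monocytes, a difference of 2.63. Nfkb2 there was at 1.52 in mural cells and -0.44 in epithelial cells, a difference of 1.97. Tnfaip3 after fractions at day 14 was at 0.66 in macrophages and monocytes and -1.26 in epithelial cells, a difference of 1.91.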

How the results depend on the processing

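Of the counts of members at least 2-fold lower, 39 of 40 stayed within 1.5 times of the reported count across the alternatives, and 36 of 40 of those higher did. Single combinations of member and class were less stable: under at least 1 alternative the 2-fold call changed in 12 of 64 after the single dose, 9 of 38 after fractions at day 7 and 2 of 58 at day 14, each against the control. It changed in 5 of 36 between the day 7 schedules and 5 of 40 between the fractionated libraries. With every cell weighted equally, 2 rather than 4 combinations were higher after fractions at day 7: Nfkb1 was then at 0.93 in blood endothelial and 0.81 in mural cells on the log2 scale, still above the control. At day 14 against the control 1 rather than 0 was higher with doublets kept, with every cell weighted equally and with no minimum of UMIs. From day 7 to day 14 after fractions 1 rather than 0 was lower with totals that leave out mitochondrial and ribosomal protein genes, namely Nfkb1 in blood endothelial cells at -1.08. Nfkbie in lymphatic endothelial cells after the single dose, from 1 and 19 UMIs, turned from -2.52 to 0.0078 with every cell weighted equally. Glial Sod2 after the single dose was under 2-fold with median-of-ratios scaling, at 0.85, and with every cell weighted equally, at 0.67. Shares of cells with a UMI rose with the depth used, and 99 of 108 moved beyond their interval. No paired analysis was possible because each group is 1 pooled library, and for the same reason no replicate could be left out.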
